A study of Arabidopsis thaliana with 6 samples.

Results

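Cytochrome P450 genes were taken from the gene count table of a study of Arabidopsis thaliana as all rows whose symbol is CYP, digits and a letter, apart from 6 loci left out by name. This gave 236 genes among 33602 loci. Polyadenylated RNA of whole plants was sequenced from 3 libraries of the gemin2 mutant and 3 libraries of the wild type (WT). All plants were of the Col ecotype, were 9 days old, and had been grown on agar medium at 22 °C in continuous light. GEMIN2 belongs to the SMN complex, which helps assemble the small nuclear ribonucleoproteins of the spliceosome, and the mutant line is called gemin2-1 in the authors' deposited tables. The libraries are named A, B and C in each genotype, as in the count tables, and values given in threes follow that order. The labels do not say whether the libraries of a genotype go back to separate cultures. The p-values therefore reflect how much these samples vary, and that variation may be technical.

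Cytochrome P450 enzymes are haem proteins, mostly bound to the endoplasmic reticulum, that use molecular oxygen to hydroxylate or otherwise oxidise their substrates with electrons handed over by a reductase. Plants have very large P450 families. Some members make or break down hormones, sterols, carotenoids, lignin and the waxes and polyesters of the plant surface, and many others make defence compounds or detoxify foreign chemicals. Members of a family often lie next to each other on a chromosome as products of tandem duplication.

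The libraries held 14049163 to 17217408 gene reads. P450 reads made up 0.422%, 0.402% and 0.412% of them in the gemin2 libraries, against 0.42%, 0.424% and 0.412% in the WT libraries. The locus of GEMIN2 had 71, 77 and 74 reads in the gemin2 libraries, against 239, 262 and 221 in the WT libraries. Of the shoot markers, LHCB1.1 had 81995, 98072 and 92616 reads in gemin2, against 40631, 55246 and 47231 in WT, and RBCS1A had 212954, 219005 and 227204 in gemin2, against 192415, 229683 and 204988 in WT. Of the root markers, IRT1 had 3007 to 3870 reads in gemin2 and 4367 to 5624 in WT, SCR had 739 to 844 in gemin2 and 590 to 703 in WT, and PHO1 had 1406 to 1787 in gemin2 and 1037 to 1350 in WT. The genotypes overlapped only for RBCS1A, and the part of organ make-up in the P450 values below was not tested. Ribosomal RNA loci took 0.551% to 0.787% of gene reads in gemin2 and 0.23% to 0.461% in WT, and organelle loci 0.539% to 0.815% in gemin2 and 0.182% to 0.48% in WT; leaving both out changed neither count of P450 calls given below.

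Of the 236 genes, 159 had enough reads to be tested. Of the other 77, 26 had no read in any library and 51 had a median of 3 reads, and at most 66, over all 6 libraries. Among the tested genes, 35 were higher in gemin2, 43 were lower, and 81 did not reach an adjusted p below 0.05 (quasi-likelihood test of edgeR, with adjustment over all 20762 tested genes). This is 49.1% of the P450 genes, beside 36.7% of all tested genes; by direction it is 22% higher and 27% lower, beside 17.8% and 18.9%. The median log2 fold change of gemin2 over WT was 0.011 for the P450 genes and -0.001 for all tested genes. The median size of the change, whatever its sign, was 0.29 for the P450 genes and 0.18 for all tested genes, on the log2 scale.

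Many of the P450 changes were small. Of the 78 called genes, 39 differed by less than 0.5 on the log2 scale, and the median size was 0.50. A change of at least 1 was called for 10 genes, 3 higher and 7 lower in gemin2, which is 6.29% of the tested P450 genes beside 3.12% of all tested genes. All libraries of one genotype lay above all of the other for 92 of the 159 genes (57.9%, beside 48.1% of all tested genes), and for 75 of the 78 called ones, all but CYP82C3, CYP79B2 and CYP705A4. Whole plants were harvested, so fewer cells of a type and less RNA per cell cannot be told apart in any of these values.

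**Figure D1:**
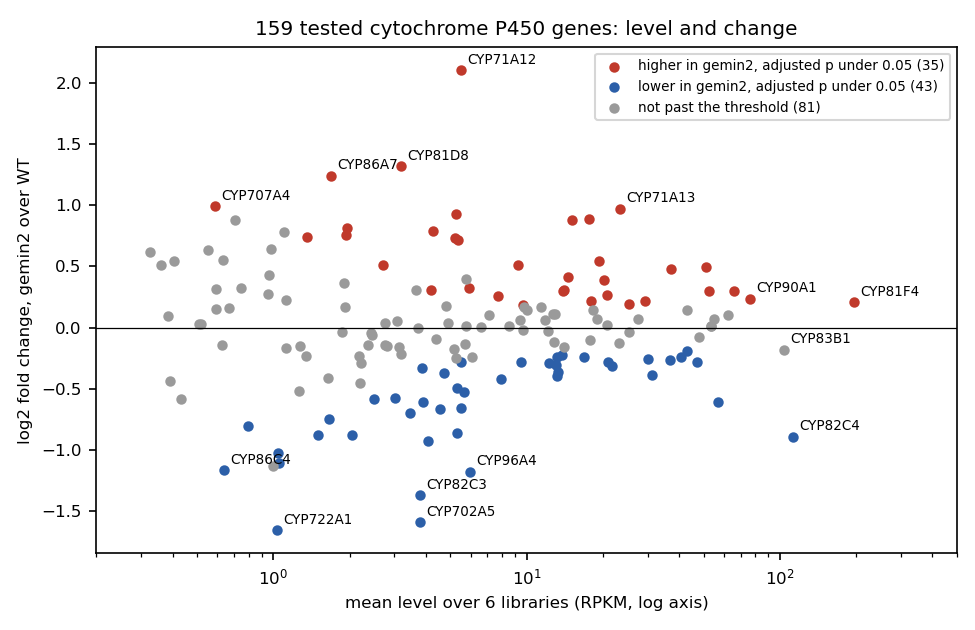
Mean level of the 159 tested P450 genes (horizontal log axis, RPKM, reads scaled to library size and gene width) against the log2 fold change of gemin2 over WT (vertical axis), 1 point per gene. Called genes lie on both sides of 0 at low and at high levels, and the largest changes, such as CYP71A12 at 2.10 and CYP722A1 at -1.66, belong to genes of low or middle level.

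The highest level per length belonged to CYP81F4, with a mean of 196.6 RPKM over the 6 libraries (reads scaled to library size and to the effective width of the gene in kilobases), beside a median of 5.33 for the tested P450 genes. CYP82C4 had 113, CYP83B1 104, CYP90A1 75.9 and CYP84A1 65.7 RPKM. These 5 genes held 22.9% of all P450 reads in gemin2 and 24.0% in WT. They did not move together: CYP81F4, CYP90A1 and CYP84A1 were higher in gemin2, CYP82C4 was lower, and CYP83B1 did not pass the threshold.

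The indole glucosinolate and camalexin enzymes start from tryptophan. CYP79B2 and CYP79B3 make indole-3-acetaldoxime, CYP83B1 commits it to indole glucosinolates, CYP71A12 and CYP71A13 turn it into indole-3-acetonitrile, the precursor of the phytoalexin camalexin and related compounds, and the CYP81F enzymes modify the indole ring of the glucosinolates. Of 11 tested genes, 5 were higher in gemin2, 3 were lower and 3 did not pass. Their median log2 fold change was 0.067, beside -0.001 over all tested genes. The share to set beside this and all counts by role below is 36.7% called among all tested genes, 17.8% higher and 18.9% lower. No count by role was tested against it. CYP71A12 and CYP71A13 were among the higher ones, and both CYP79B genes were among the lower ones.

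In libraries A, B and C, CYP71A12 had 24.8, 7.18 and 13.3 CPM in gemin2 (CPM are reads scaled to the size of the library), against 4.56, 2.97 and 2.93 CPM in WT. Every gemin2 library was above every WT library, and gemin2 A stood far above gemin2 B. The log2 fold change of 2.10 (SE 0.36) had an edgeR adjusted p of 0.000366. With a robust fit of the dispersions the same change had an adjusted p of 0.0738 in edgeR. It is the highest log2 fold change among the tested P450 genes. CYP71A13, which lies on the same chromosome arm close by, had 50.7, 39 and 62.3 CPM in gemin2, against 27.4, 28.5 and 21.2 CPM in WT. The genotypes did not overlap, and gemin2 C was the highest library here rather than A. In edgeR the log2 fold change was 0.97 with an SE of 0.14 and an adjusted p of 5.93e-05. CYP71A19, a gene of the same subfamily, had 11.8, 11.8 and 9.84 CPM in gemin2 and 7.58, 6.47 and 5.29 CPM in WT, without overlap. This gave a log2 fold change of 0.79 (SE 0.13, edgeR adjusted p = 0.000201).

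The 250 bases before the annotated start of CYP71A12 and CYP71A13 are shown because the genes are close relatives that both rose. They were read from the RefSeq copy of the TAIR10 genome on the minus strand, the strand of the genes (chr2:13101414-13101663 for CYP71A12 and chr2:13112012-13112261 for CYP71A13). Capitals mark the core of the W-box, TTGAC on the strand of the gene or GTCAA where it stands on the other strand, a motif known to be bound by WRKY transcription factors.
CYP71A12: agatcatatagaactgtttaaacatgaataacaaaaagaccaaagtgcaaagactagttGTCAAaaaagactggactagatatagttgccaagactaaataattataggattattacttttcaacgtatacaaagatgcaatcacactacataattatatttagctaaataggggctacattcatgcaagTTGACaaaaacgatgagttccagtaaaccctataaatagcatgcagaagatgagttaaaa
CYP71A13: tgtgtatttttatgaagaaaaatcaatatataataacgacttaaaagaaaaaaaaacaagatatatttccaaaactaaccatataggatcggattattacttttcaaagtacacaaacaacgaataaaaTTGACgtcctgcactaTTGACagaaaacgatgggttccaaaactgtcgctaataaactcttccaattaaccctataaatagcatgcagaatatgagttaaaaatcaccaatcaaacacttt
The windows were identical at 167 of 278 aligned positions (60.1%). Each held 2 W-box cores, 60 and 191 bases before the start of CYP71A12, and 105 and 121 bases before that of CYP71A13. Such a window held TTGAC on either strand for 44.2% of 32834 loci, for 50.9% of the tested P450 genes, for 20 of the 35 higher genes (57.1%) and for 16 of the 43 lower genes (37.2%). These shares count windows with TTGAC present, whatever the number of copies, so they do not show how common 2 cores are. The G-box, CACGTG, which reads the same on both strands, was found in 6.77% of loci, 5.66% of the tested P450 genes, 5.71% of the higher ones and 4.65% of the lower ones. These counts describe letters in the windows, with no test, and they do not show that a factor binds there.

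The CYP81F genes, which act on the indole glucosinolates, differed in direction. CYP81F2 had 5.6, 3.7 and 3.51 CPM in gemin2 libraries and 2.25, 2.31 and 2.72 CPM in WT libraries, with no overlap. CYP81F2 thus rose with a log2 fold change of 0.81 (SE 0.21, edgeR adjusted p = 0.00651). CYP81F4 had 379.5, 351 and 357 CPM in gemin2, against 312, 312 and 319 CPM in WT, again without overlap. The fitted log2 fold change was 0.20 (SE 0.048, edgeR adjusted p = 0.00335). CYP81F1 was lower, with 8.47, 7.52 and 8.55 CPM in gemin2, against 11.1, 10.9 and 13.3 CPM in WT, though it overlaps another annotated locus (AT4G37432) with which it may share reads. On the log2 scale CYP81F1 fell, with a fold change of -0.52 (SE 0.11, edgeR adjusted p = 0.00134). CYP81F3 had a log2 fold change of -0.23 and did not pass (edgeR adjusted p = 0.266).

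The enzymes at the entry to the pathway moved little. CYP79B3 had 72.6, 64.9 and 73.1 CPM in gemin2 and 80.9, 88.5 and 78.8 CPM in WT, and every gemin2 library was below every WT library. For CYP79B3 edgeR gave a log2 fold change of -0.24 (SE 0.059, adjusted p = 0.00505). For CYP79B2 the log2 fold change was -0.19 with overlapping genotypes (edgeR adjusted p = 0.0464), and without gemin2 B it was -0.11 with an edgeR adjusted p of 0.239. The CYP79B2 call was also lost with DESeq2, with a robust fit and without WT A, WT B or gemin2 C. CYP83B1 was at 182, 146 and 183 CPM in gemin2, against 189, 188 and 202 CPM in WT. A log2 fold change of -0.18 missed the threshold, with an edgeR adjusted p of 0.0591, and passed it without gemin2 A or gemin2 C (0.0362 and 0.0277). Among 16 tested genes of the same pathway that are not P450s, such as transcription factors, transferases and tryptophan enzymes, 4 were higher in gemin2, 2 were lower and 10 did not pass. The highest called one was BW51A (AT1G18570, the transcription factor MYB51), with a log2 fold change of 0.86 and an edgeR adjusted p of 0.00172. The lowest was ATGSTF6, a glutathione transferase, at -1.26 with an edgeR adjusted p of 9.37e-06.

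**Figure D2:**
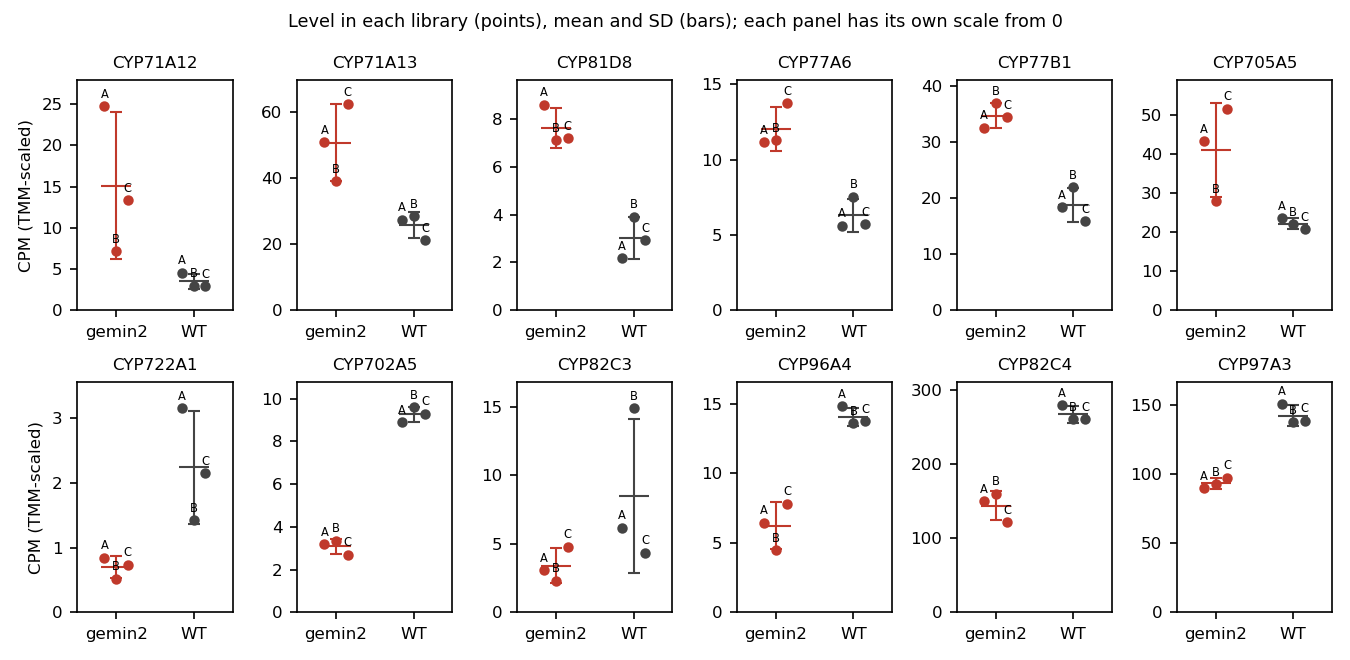
Level in CPM (vertical axes, each from 0) of 12 P450 genes in the gemin2 libraries (left in each panel) and the WT libraries (right), with 1 lettered point per library, the mean and the SD (bars). The upper row holds 6 genes higher in gemin2 and the lower row 6 genes lower in gemin2. The genotypes overlap only for CYP82C3, and CYP71A12 has the widest spread within gemin2 in the upper row relative to its mean.

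Brassinosteroid synthesis runs through several P450s that oxidise the sterol side chain and ring. Of 5 tested genes, 1 was higher in gemin2, 3 were lower and 1 did not pass, with a median log2 fold change of -0.30. CYP90A1, which oxidises the ring at C-3 and is known from the dwarf mutant cpd, had 144, 137 and 143 CPM in gemin2, against 118, 128 and 113 CPM in WT. The genotypes did not overlap. The change on the log2 scale was 0.24 (SE 0.051, edgeR adjusted p = 0.00185). CYP90B1, the C-22 hydroxylase DWF4 that is held to be the rate-limiting step, had 20.2, 20.02 and 20.9 CPM in gemin2 and 26.9, 23.7 and 24.9 CPM in WT. It was lower in gemin2 without overlap. The log2 fold change of -0.30 (SE 0.067) had an edgeR adjusted p of 0.00259. CYP90D1, a C-23 hydroxylase, had 8.6, 8.45 and 8.3 CPM in gemin2 libraries and 13.1, 10.8 and 12 CPM in WT libraries. In edgeR the log2 fold change was -0.49 with an SE of 0.10 and an adjusted p of 0.00111. CYP85A1, a late C-6 oxidase, had 15, 23 and 14 reads in gemin2, against 25, 31 and 28 in WT. It changed by -0.81 on the log2 scale (edgeR adjusted p = 0.0202). This call was lost with DESeq2 and without gemin2 A, gemin2 C, WT B or WT C. The other C-6 oxidase, CYP85A2, did not pass at 0.058 (edgeR adjusted p = 0.602). Of 7 non-P450 genes of synthesis and signalling, 1 was higher (the receptor BRI1, log2 fold change 0.14, edgeR adjusted p = 0.0466), 2 were lower, and 4 did not pass. The lower call with the lowest value was the transcription factor BES1, with a log2 fold change of -0.38 and an edgeR adjusted p of 3.11e-05.

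The CYP707A enzymes inactivate abscisic acid by hydroxylation, and 2 of the 4 changed, in opposite directions. CYP707A3 had 3.65, 2.49 and 2.15 CPM in gemin2, against 4.91, 5.75 and 4.43 CPM in WT, with no overlap. This gave a log2 fold change of -0.88 (SE 0.19, edgeR adjusted p = 0.00227). CYP707A4 had 1.37, 1.27 and 1.35 CPM in gemin2 and 0.631, 0.831 and 0.501 CPM in WT, which rests on 7 to 22 reads a library. CYP707A4 thus rose with a log2 fold change of 0.99 (SE 0.29, edgeR adjusted p = 0.0149). This call was lost without WT C (adjusted p = 0.0621 in edgeR) and with DESeq2 (adjusted p = 0.0925). CYP707A1 and CYP707A2 did not pass, with log2 fold changes of 0.057 and 0.31. Of 5 genes of abscisic acid synthesis, 2 were higher, 1 was lower and 2 did not pass. The highest called one was SDR1, the xanthoxin dehydrogenase, at 0.29 (edgeR adjusted p = 0.0122), and the called lower one was NPQ2, the zeaxanthin epoxidase, at -0.20 (edgeR adjusted p = 0.0107).

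Few of the other hormone P450s passed the test. CYP88A3, an ent-kaurenoic acid oxidase of gibberellin synthesis, had a log2 fold change of -0.28 (SE 0.095, edgeR adjusted p = 0.0315). The CYP88A3 call was lost with DESeq2 and with each of gemin2 A, gemin2 C, WT B and WT C left out. The other tested gene of that list, CYP714A1, did not pass. Of 6 gibberellin genes outside the P450s, 1 was higher (GA20OX2, a GA 20-oxidase, at 0.91, edgeR adjusted p = 0.00865), 2 were lower and 3 did not pass. The lowest was KS1, the ent-kaurene synthase, at -0.59 (edgeR adjusted p = 0.000411). CYP711A1, known as MAX1 in strigolactone synthesis, had 21.1, 21 and 21.3 CPM in gemin2 and 29.3, 27.6 and 24.5 CPM in WT, without overlap of the genotypes, but it shares its position with another locus (AT2G26180). The fitted log2 fold change was -0.36 (SE 0.071, edgeR adjusted p = 0.00097). CYP722A1, listed with it, had the lowest log2 fold change of the P450 genes: it had 13, 9 and 12 reads in gemin2, against 45, 24 and 30 in WT. On the log2 scale CYP722A1 fell, with a fold change of -1.66 (SE 0.33, edgeR adjusted p = 0.00123). The cytokinin hydroxylases CYP735A1 and CYP735A2 did not pass, and neither did any of the 3 tested enzymes of jasmonate breakdown, of which CYP94C1 was at -0.44 with an SE of 0.35 and CYP94B1 at -0.062 with an SE of 0.16.

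**Figure D3:**
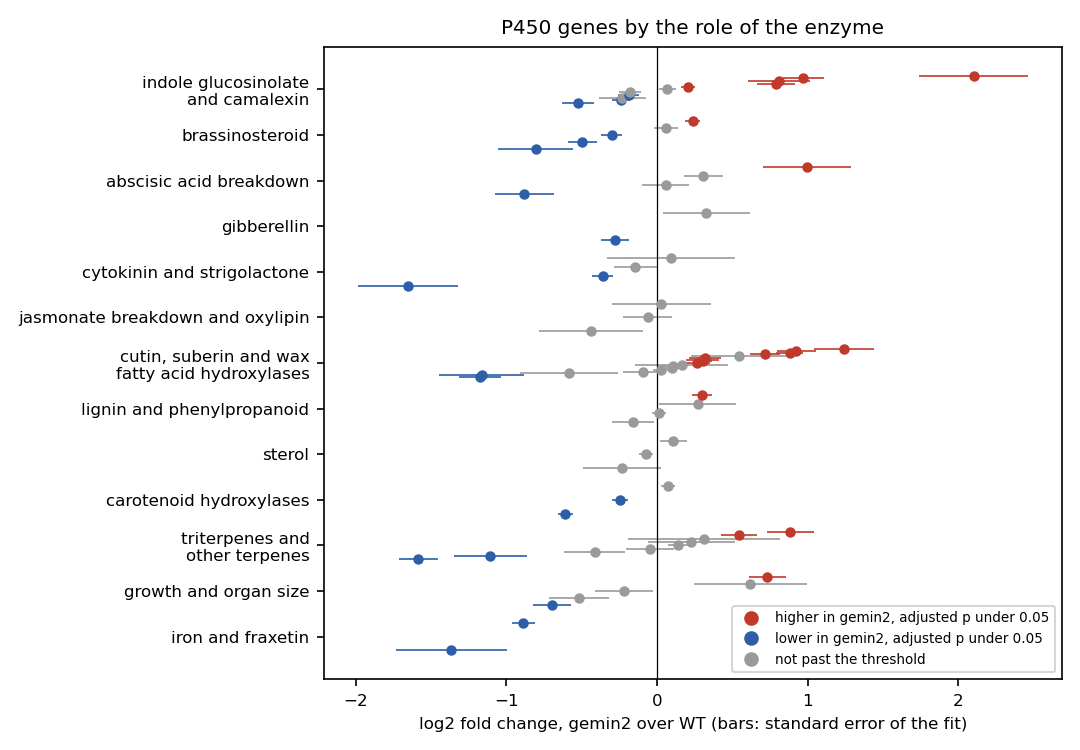
Log2 fold change of gemin2 over WT (horizontal axis; bars are the standard error of the fit) for the tested P450 genes in 13 groups by role (vertical axis), 1 point per gene. The cutin, suberin and wax hydroxylases have 8 of 17 points called higher and 2 called lower, beside 17.8% and 18.9% of all tested genes. Both genes of the iron and fraxetin group are called lower. For CYP82C3 the genotypes overlap, and its call was lost without WT B, with a robust fit and with DESeq2.

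Fatty acid hydroxylases of the plant surface make the monomers of cutin, suberin and wax. Of 29 such genes, 17 were tested. In this group 8 were higher in gemin2, 2 were lower and 7 did not pass, with a median log2 fold change of 0.27, beside -0.001 over all tested genes. CYP77A5P, which was listed under the name CYP77A5, is not in these counts. It was called lower at -0.22, and the call was lost with DESeq2 (adjusted p = 0.0937). CYP77A6, an in-chain hydroxylase of cutin monomers, had 11.1, 11.3 and 13.7 CPM in gemin2, against 5.61, 7.54 and 5.72 CPM in WT. All gemin2 libraries were higher. For CYP77A6 edgeR gave a log2 fold change of 0.92 (SE 0.13, adjusted p = 5.35e-05). CYP86A4, which adds the terminal hydroxyl group to cutin monomers, had 14.5, 13.4 and 15.4 CPM in gemin2, against 8.28, 9.85 and 8.01 CPM in WT, with no overlap. The change on the log2 scale was 0.72 (SE 0.10, edgeR adjusted p = 5.54e-05). CYP86A7, of the same subfamily, had 3.97, 4.28 and 4.31 CPM in gemin2 and 1.61, 2.25 and 1.36 CPM in WT, also with no overlap. The log2 fold change of 1.24 (SE 0.20) had an edgeR adjusted p of 0.000179. CYP77B1, of the CYP77 family of in-chain fatty acid oxidases, had 32.5, 36.9 and 34.5 CPM in gemin2 and 18.3, 21.9 and 15.9 CPM in WT. Its genotypes were well apart, and it had the smallest adjusted p among the higher P450 genes. In edgeR the log2 fold change was 0.88 with an SE of 0.091 and an adjusted p of 3.15e-06.

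The other 4 higher genes of this group changed by 0.27 to 0.32 on the log2 scale, and 3 of them lost their calls under several alternatives. CYP77A4 did so with DESeq2 and without any single library (highest adjusted p = 0.197), and CYP96A1 with DESeq2 and without gemin2 A, WT A or WT B (highest adjusted p = 0.104). CYP86A1, the suberin hydroxylase of roots, was at 0.27 and did so without gemin2 A, WT B or WT C, with 0.16 and an edgeR adjusted p of 0.125 without gemin2 A. The group then had 5 higher genes without gemin2 A, 6 without WT B and 6 with DESeq2, and 2 lower genes in each. CYP86A2 and CYP86A8, also of the subfamily, did not pass, at 0.10 and 0.023. The lower genes were CYP96A4 and CYP86C4. CYP96A4 had 6.45, 4.46 and 7.81 CPM in gemin2, against 14.8, 13.6 and 13.7 CPM in WT, and the WT libraries were close together while the gemin2 libraries spread more. This gave a log2 fold change of -1.18 (SE 0.14, edgeR adjusted p = 1.35e-05). CYP86C4 had 9, 12 and 14 reads in gemin2, against 23, 31 and 19 in WT. CYP86C4 thus fell with a log2 fold change of -1.17 (SE 0.28, edgeR adjusted p = 0.00426). Of 15 non-P450 genes of cutin, suberin and wax, 8 were higher in gemin2, 1 was lower and 6 did not pass. The highest was EMB3009 (AT5G23940, known as DCR, an acyltransferase needed for cutin), with a log2 fold change of 0.86 and an edgeR adjusted p of 4.96e-07. The lower one was LACS2, an acyl-CoA synthetase, at -0.20 with an edgeR adjusted p of 0.00959.

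Lignin and sterol P450s changed little. CYP84A1, the ferulate 5-hydroxylase that leads to syringyl lignin and sinapate esters, had 131, 126 and 138 CPM in gemin2, against 95.6, 107 and 119 CPM in WT, with no overlap. The fitted log2 fold change was 0.30 (SE 0.066, edgeR adjusted p = 0.00226). It was the only called gene of 4 in its group, and CYP98A3, the hydroxylase of the coumaroyl shikimate step, was at 0.013 with an SE of 0.044. Of 11 lignin and phenylpropanoid genes outside the P450s, 3 were higher, 5 were lower and 3 did not pass. Their extremes were ATCCR1 at 0.34 (edgeR adjusted p = 8.18e-05) and CAD at -0.25 (edgeR adjusted p = 0.000607), the reductase and a dehydrogenase of the last steps to the monolignols. None of the 3 tested sterol enzymes passed: CYP51G1, the sterol 14-demethylase, had a log2 fold change of -0.076 (SE 0.046, edgeR adjusted p = 0.217), and CYP710A2, a sterol C-22 desaturase, 0.11 (SE 0.091, edgeR adjusted p = 0.381).

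The carotenoid hydroxylases that make lutein were lower in gemin2. CYP97A3, which hydroxylates the beta ring, had 89.8, 93 and 97.4 CPM in gemin2, against 151, 138 and 139 CPM in WT. The genotypes were far apart relative to their spread. On the log2 scale CYP97A3 fell, with a fold change of -0.61 (SE 0.051, edgeR adjusted p = 4.75e-07). CYP97C1, which hydroxylates the epsilon ring, had 38.7, 40.9 and 41.6 CPM in gemin2, against 46.9, 48.6 and 48 CPM in WT, without overlap. For CYP97C1 edgeR gave a log2 fold change of -0.24 (SE 0.053, adjusted p = 0.00223). Both genes overlap an annotated neighbour, AT1G31810 and AT3G53140, and the labels name no strand-marking step, so shared reads cannot be told apart. CYP97B3, the remaining family member, did not pass at 0.071 (edgeR adjusted p = 0.238). Of 6 carotenoid and strigolactone genes outside the P450s, 1 was higher (B2, AT5G52570, a beta-carotene hydroxylase of another enzyme class, at 0.46, edgeR adjusted p = 0.000387), 3 were lower and 2 did not pass. The lowest was PSY, the phytoene synthase, at -0.21 (edgeR adjusted p = 0.00235).

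Terpene P450s changed in both directions, with 2 higher, 2 lower and 5 without a call among 9 tested. CYP705A5 and CYP708A2 belong to the thalianol gene cluster of chromosome 5 and act on the triterpene thalianol. CYP705A5 had 43.2, 27.9 and 51.6 CPM in gemin2, against 23.6, 21.9 and 20.7 CPM in WT. The genotypes did not overlap, and gemin2 B was the lowest of its genotype. The change on the log2 scale was 0.88 (SE 0.16, edgeR adjusted p = 0.000453). CYP708A2 had 50.1, 35.2 and 53.4 CPM in gemin2 and 34.6, 32.3 and 28 CPM in WT, with gemin2 B again the lowest. The log2 fold change of 0.54 (SE 0.12) had an edgeR adjusted p of 0.00238. A robust fit gave these 2 genes adjusted p-values of 0.0731 and 0.104 in edgeR. The thalianol synthase gene THAS, picked as a neighbour after its values were seen, had 57.2, 38.1 and 63 CPM in gemin2, against 37.2, 30.7 and 31.8 CPM in WT. Here too gemin2 B was nearest to WT. In edgeR the log2 fold change was 0.67 with an SE of 0.14 and an adjusted p of 0.00133.

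CYP702A5 and CYP702A6 lie next to each other on chromosome 4. CYP702A5 had 49, 58 and 44 reads in gemin2, against 127, 162 and 130 in WT, and its libraries were close together within each genotype. This gave a log2 fold change of -1.59 (SE 0.13, edgeR adjusted p = 3.15e-07). It had the smallest adjusted p of all P450 genes. CYP702A6 had 17, 20 and 14 reads in gemin2, against 28, 43 and 31 in WT. CYP702A6 thus fell with a log2 fold change of -1.11 (SE 0.24, edgeR adjusted p = 0.00215).

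CYP78A genes act on growth and organ size, and 1 of the 5 tested was higher, 1 lower and 3 did not pass. CYP78A5, known as KLUH, which prolongs organ growth, had 12.3, 13.4 and 9.9 CPM in gemin2, against 6.38, 7.24 and 7.87 CPM in WT, without overlap. The fitted log2 fold change was 0.73 (SE 0.12, edgeR adjusted p = 0.000315). CYP78A6, which acts on seed size, had 5.28, 5.27 and 4.8 CPM in gemin2 and 7.72, 9.26 and 7.8 CPM in WT, without overlap. On the log2 scale CYP78A6 fell, with a fold change of -0.70 (SE 0.12, edgeR adjusted p = 0.000433).

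CYP82C4 hydroxylates the coumarin fraxetin to sideretin and is known as a gene of the iron deficiency response of roots. It had 150.5, 160.2 and 122 CPM in gemin2, against 279.8, 261 and 261 CPM in WT. Every gemin2 library was far below the WT libraries. For CYP82C4 edgeR gave a log2 fold change of -0.89 (SE 0.076, adjusted p = 4.96e-07). Its neighbour CYP82C3 had 47, 40 and 78 reads in gemin2, against 88, 251 and 61 in WT. WT B alone is high, and the genotypes overlap. The change on the log2 scale was -1.36 (SE 0.37, edgeR adjusted p = 0.00867). Without WT B the log2 fold change was -0.64 with an edgeR adjusted p of 0.0714, and a robust fit gave an edgeR adjusted p of 0.189. The CYP82C3 call was also lost with DESeq2. The root iron transporter IRT1 had 3159, 3870 and 3007 reads in gemin2, against 4815, 5624 and 4367 in WT, whereas the root markers SCR (739 to 844 reads in gemin2, 590 to 703 in WT) and PHO1 (1406 to 1787 in gemin2, 1037 to 1350 in WT) were not lower in gemin2. The part of root tissue in the CYP82C4 result was not tested.

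Outside these roles, CYP81D8, known to respond to foreign chemicals, had 8.6, 7.12 and 7.2 CPM in gemin2, against 2.17, 3.92 and 2.93 CPM in WT. The genotypes did not overlap. The log2 fold change of 1.32 (SE 0.17) had an edgeR adjusted p of 3.41e-05. CYP708A1 (0.75) and CYP71B3 (0.74) were also among the higher genes, with log2 fold changes in brackets. The lower ones included CYP705A28 (-1.02), CYP71B13 (-0.93), CYP706A7 (-0.88) and CYP712A1 (-0.86, overlapping AT2G42247). CYP71B3 and CYP705A28 lost their calls with DESeq2 (adjusted p = 0.0589 and 0.0703), and also without 1 library, WT B for CYP71B3 and gemin2 B for CYP705A28. CYP72A10 had 18, 7 and 23 reads in gemin2 and 16, 66 and 17 in WT, so that WT B alone was high, and it did not pass at -1.13 (edgeR adjusted p = 0.0744). The symbol CYP81D1 stands at 2 loci. AT5G36220 was lower at -0.61 (edgeR adjusted p = 0.00371), and AT3G28740, which RefSeq calls CYP81D11, did not pass at -0.03.

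By family, the calls were as follows, with no test of the counts. Among all tested genes 17.8% were higher and 18.9% lower. In CYP71A, 12 genes were tested, 5 were higher, 1 was lower, and the median log2 fold change was 0.42. In CYP71B, the largest subfamily with 36 genes, 22 were tested, 3 were higher and 6 were lower, with a median of -0.072. Among the called CYP71B genes, CYP71B3, CYP71B4, CYP71B11 and CYP71B23 lost their calls with DESeq2. CYP71B2 lost its call without WT B, and CYP71B20 without WT A or without gemin2 B. CYP705A had 20 tested genes with 2 higher and 6 lower, at a median of -0.21. Of the higher ones, CYP705A4 lost its call with DESeq2 and without WT A, WT C, gemin2 B or gemin2 C, and CYP705A5 with a robust fit. The lower gene CYP705A28 lost its call with DESeq2 and without gemin2 B. In CYP86A 3 of 5 tested genes were higher and 0 lower. In CYP706A 3 of 6 were higher and 2 were lower. Of these 3, CYP706A4 (0.18) lost its call with DESeq2, with a robust fit, with no filter and without any single library (highest adjusted p = 0.229), and CYP706A1 and CYP706A2 share exon windows.

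There were 18 runs of at least 3 P450 genes with no more than 2 other loci between neighbours, holding 104 of the 236 genes. In 12 of these runs at least 2 genes were called, and 7 of the 12 held both higher and lower genes. That count depended on the test and on single libraries: with DESeq2, 3 of 7 such runs held both, without gemin2 B 4 of 11 and without WT A 5 of 13. In the CYP81 run of chromosome 4 (chr4:17555927-17598958), CYP81D8 (1.32), CYP81F4 (0.20) and CYP81D4 (0.20) were higher, and CYP81H1 (-0.24) and CYP81F1 (-0.52) were lower on the log2 scale. The call of CYP81D4 was lost with DESeq2 and without gemin2 A, gemin2 C, WT A or WT B (highest adjusted p = 0.0802), and that of CYP81H1 without gemin2 B or WT B (highest edgeR adjusted p = 0.0663). In the CYP72A run of chromosome 3 (chr3:4912466-4939465), CYP72A7 and CYP72A8 at one end were higher, at 0.26 and 0.39, and CYP72A13 and CYP72A15 at the other end were lower, at -0.28 and -0.27. CYP72A7 lost its call with DESeq2 and without any single library other than gemin2 C (highest adjusted p = 0.186). In the other 5 runs the genes called in the main fit moved one way. They were lower in both CYP705A runs of chromosome 3, in the CYP82C run of chromosome 4 and in the CYP71B11 to CYP71B13 run of chromosome 5. They were higher in the CYP71A run of chromosome 3. With DESeq2, CYP71B11, CYP705A28 and CYP82C3 of the lower runs lost their calls. The CYP82C run held both directions with no filter and without WT A, WT B, WT C or gemin2 C. Its gene CYP82C2 was not tested in the main fit. In one CYP705A run, CYP705A15 and CYP705A16 overlap each other and may share reads.

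**Figure D4:**
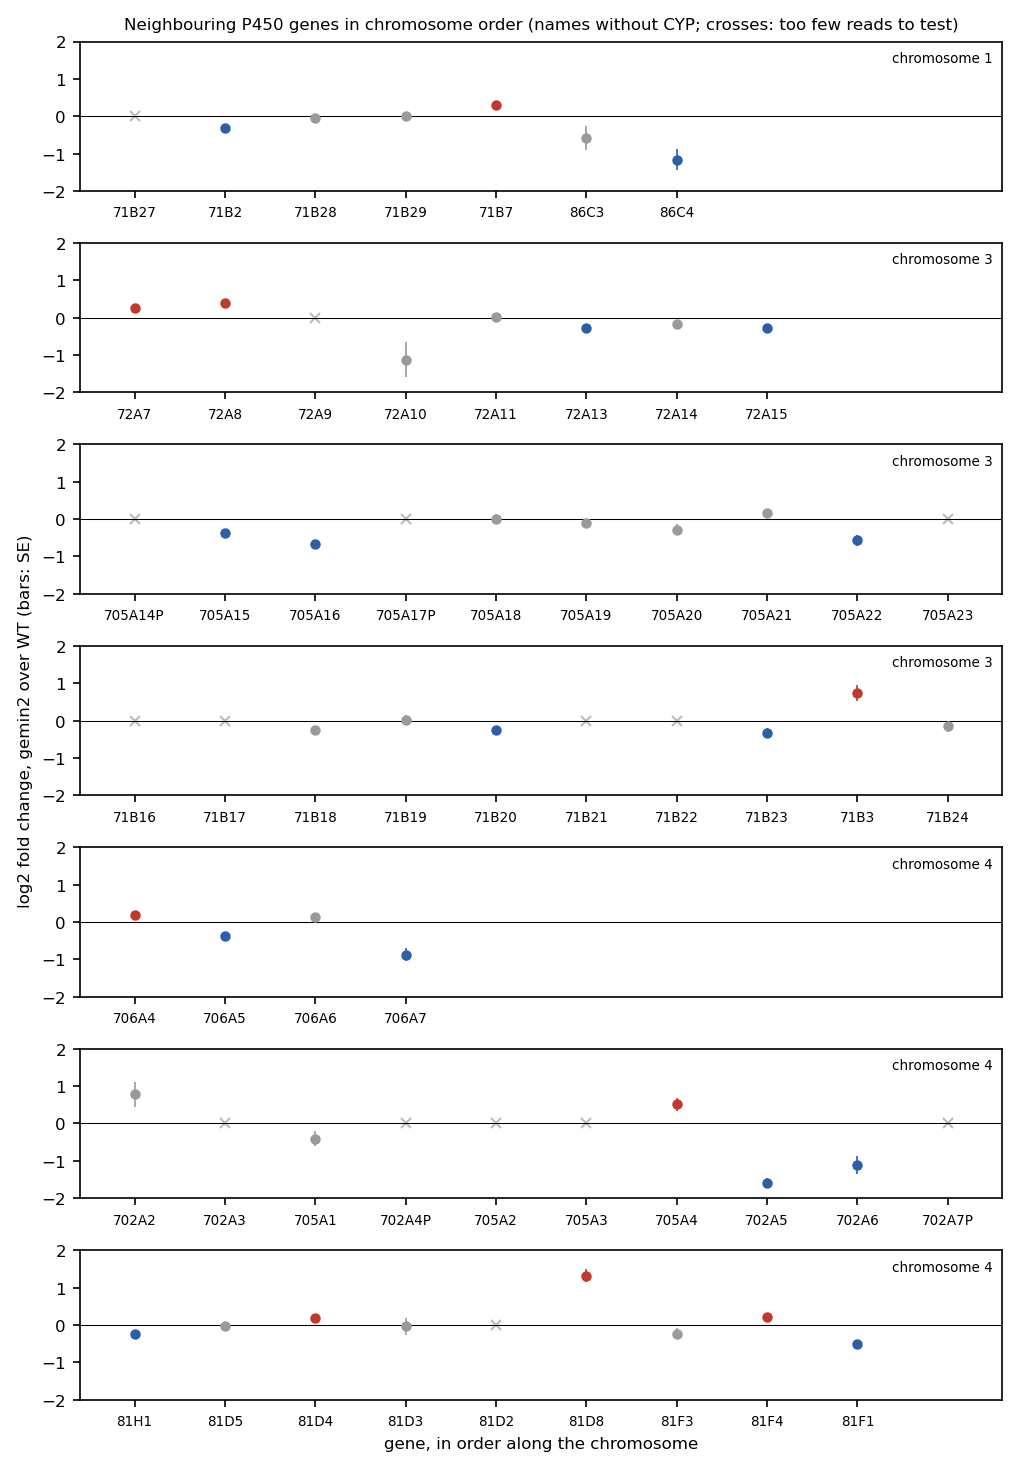
Log2 fold change of gemin2 over WT (vertical axes; bars are standard errors) for the P450 genes of 7 chromosomal runs with at least 3 called genes, in order along the chromosome (horizontal axes). Red points are higher in gemin2, blue points lower, grey points not past the threshold, and crosses had too few reads. In 6 of the runs shown red and blue points stand in the same run, a count that was 3 with DESeq2, where CYP706A4, CYP705A4 and CYP71B3 were not called, and 3 without gemin2 B or without WT A, and in the CYP705A run of chromosome 3 the 3 called genes are all lower.

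Close copies can share reads, so exon windows of 50 bases were compared with all other loci. Of the 159 tested genes, 102 shared no window with another locus, 11 shared over 10% of their windows and 4 over 25%. The 4 were CYP706A1 (46.6%), CYP706A2 (60.4%), CYP89A5 (31.1%) and CYP705A26P (27.7%). CYP706A1 and CYP706A2, which share windows with each other, were called higher at 0.50 and 0.47, and their separate values are uncertain. CYP71A12 shared 3.0% and CYP71A13 0.77%. CYP82C3 shared 10.6% of its windows in all, and 6.52% with CYP82C4, which had more reads.

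The P450 proteins rely on a small set of electron donors. Of 12 tested genes for reductases, cytochrome b5 proteins and their membrane partners, 1 was higher in gemin2, 4 were lower and 7 did not pass. These calls are near the 36.7% called among all tested genes. The reductases ATR1 and ATR2 did not pass, at 0.066 and 0.042 with SEs of 0.049 and 0.044. The higher gene was ATMP2, a membrane steroid-binding protein, at 0.18 (edgeR adjusted p = 0.0122). The lowest was B5.N4, a cytochrome b5, at -0.27 (edgeR adjusted p = 0.00123).

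Because GEMIN2 acts in building the spliceosome, the introns of P450 genes were compared relative to their own genes. The intron table used here covers chromosomes 1 and 2 and part of 3, with 247 introns of 87 P450 genes, of which 25 introns in 18 genes had enough reads to test. Of these, 3 were higher in gemin2 relative to the gene and 0 were lower in edgeR, and 4 had an unadjusted p under 0.05. DESeq2 called 1. Among all 4938 tested introns 9.4% were called, 293 higher and 171 lower, and 3 of 25 is near that share. The called introns are shown as the ones past the threshold. They were read from the TAIR10 genome, 5′ to 3′ on the strand of the gene, and capitals mark the GT and AG ends. They are intron 4 of CYP72A13 (chr3:4926407-4926485, plus strand), intron 8 of CYP97C1 (chr3:19695154-19695248, plus strand) and the first and last 50 bases of intron 2 of CYP98A3 (chr2:17059418-17060048, minus strand, 631 bases). None of them overlaps another annotated locus. Intron 10 of CYP97A3 (chr1:11398537-11398614, plus strand) is added since it is listed in the authors' deposited table, there with a false discovery rate of 0.0769.
CYP72A13 intron 4: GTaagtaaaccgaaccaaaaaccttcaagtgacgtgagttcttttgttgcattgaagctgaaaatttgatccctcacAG
CYP97C1 intron 8: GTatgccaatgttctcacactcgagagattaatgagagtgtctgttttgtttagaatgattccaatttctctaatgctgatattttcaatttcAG
CYP98A3 intron 2, first 50 bases: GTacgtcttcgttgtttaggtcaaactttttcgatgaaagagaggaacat
CYP98A3 intron 2, last 50 bases: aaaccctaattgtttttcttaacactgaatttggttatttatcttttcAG
CYP97A3 intron 10: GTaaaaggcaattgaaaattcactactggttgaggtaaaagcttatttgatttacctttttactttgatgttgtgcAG

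Intron 4 of CYP72A13 had 40, 48 and 51 reads in gemin2, against 22, 12 and 11 reads in WT. Per 100 reads of the gene this was 2.99 ± 0.338 in gemin2 and 0.876 ± 0.382 in WT (SD, n = 3 each), and the genotypes did not overlap. The log2 fold change relative to the gene was 1.77 (SE 0.26, edgeR adjusted p = 0.000715). The other 3 introns of the gene were tested and not called, and together they had 204 reads in gemin2 and 234 in WT. CYP72A13 itself was lower in gemin2, at -0.28 on the log2 scale (edgeR adjusted p = 0.000227).

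Intron 8 of CYP97C1 had 11, 12 and 14 reads in gemin2, against 5, 4 and 2 reads in WT. This is 1.87 ± 0.185 per 100 gene reads in gemin2 and 0.511 ± 0.226 in WT (SD, n = 3 each), with no overlap. The log2 fold change relative to the gene was 1.84 (SE 0.41, edgeR adjusted p = 0.0109), and DESeq2 gave an adjusted p of 0.164. The other 10 introns of CYP97C1 held 26 reads in gemin2 and 23 in WT in all and were too low to test. Intron 2 of CYP98A3 had 10, 16 and 16 reads in gemin2, against 4, 2 and 2 in WT. Per 100 gene reads it stood at 0.845 ± 0.182 in gemin2 and 0.179 ± 0.0841 in WT (SD, n = 3 each). Relative to the gene the log2 fold change was 2.21 (SE 0.44, edgeR adjusted p = 0.00592), and DESeq2 gave an adjusted p of 0.0836.

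**Figure D5:**
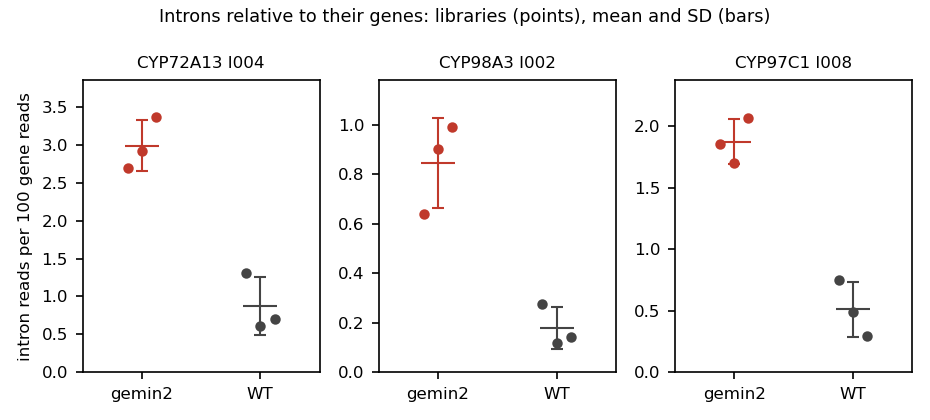
Reads of 3 introns per 100 reads of their gene (vertical axes, each from 0) in the gemin2 libraries (left in each panel) and the WT libraries (right), with 1 point per library, the mean and the SD (bars). Intron 4 of CYP72A13 lies at 2.99 per 100 in gemin2 and 0.876 in WT on average, and no panel shows overlap of the genotypes.

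The authors' deposited table of introns lists 6 P450 introns, 3 higher and 3 lower in gemin2. The higher ones are the introns of CYP72A13 and CYP97C1 above and intron 10 of CYP97A3, for which the authors' deposited table gives a log2 splicing index ratio of 2.76. In the counts, that intron had 6, 10 and 2 reads in gemin2 and 1, 2 and 1 in WT, too few for a test here. The lower ones in the authors' deposited table are the first introns of CYP709B3 (-1.70), CYP706A6 (-1.48) and CYP706A5 (-0.93), given as log2 splicing index ratios, and they lie on chromosome 4, whose intron counts were not analysed here. The authors' false discovery rates for these introns are 0.0725, 0.0341 and 0.00607, in the same order. The authors' deposited table of genes lists 20 of the P450 genes, 9 higher and 11 lower. Every change listed there for them is at least 0.608 in size on the log2 scale. The calls made here had no limit on size, and 39 of the 78 were under 0.5, so the counts are not at a like threshold.

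The annotated alternative splicing bins gave 28 bins in 19 P450 genes, of which 11 in 7 genes were tested. edgeR called 0 of them relative to their genes, with 1 at an unadjusted p under 0.05, and DESeq2 called 0, beside 4.71% of all 4649 tested bins in edgeR.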

How the data were processed

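Polyadenylated RNA from whole plants was sequenced in 3 gemin2 and 3 WT libraries, with 14049163 to 17217408 gene reads each. The deposited tables of the authors hold raw counts, in whole numbers, of the reads of each gene, splicing bin and intron. The tools in the submitters' processing notes are TopHat2 2.0.9, edgeR 3.4.2 and R 3.0.2, with the genome build TAIR10. How reads were counted and what was done with reads of several possible origins is not given in the sources used. The authors also deposited log2 fold changes, log2 splicing index ratios and false discovery rates (adjusted p-values) of their own comparison, per the file headers.

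The P450 genes, the role lists and the rule for named genes were chosen with earlier results of these data known. Symbols and coordinates are those of the deposited tables. The gene counts of all loci went into edgeR 4.0.16 under R 4.3.3 (filterByExpr, minimum count 10, TMM, quasi-likelihood F test, gemin2 over WT, two-sided, Benjamini-Hochberg adjustment over all tested genes, threshold 0.05). The standard error is the size of the log2 fold change over the square root of F. CPM use TMM library sizes, and RPKM divide them by the effective width of the gene given in the deposited table. For introns and bins the same test took the count of the gene as offset, in genes that average 20 reads or more, with a minimum count of 5. DESeq2 1.42.0 was an alternative. No column of sample values was left out (0). On simulated counts with 100 genes changed by 1 and 100 by 2 on the log2 scale, the gene test recovered 97% and 100% of them among 20762 genes. Of its calls 7.51% were false, more than the threshold of 0.05 aims at. The simulation held no smaller changes, although 39 of the 78 called P450 genes changed by less than 0.5. Its share of changed genes was also far below the 36.7% called here, so it does not measure recovery or false calls in that setting.

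Named genes are the 12 highest and 12 lowest called ones by log2 fold change with a mean log2 CPM of at least 0 and no overlap of the genotypes, of each role list the 2 highest and 2 lowest called by log2 fold change over SE (where none was called, the 2 with the smallest p), the 5 with the highest level per length, the highest and lowest called of each list of non-P450 genes, and genes with a called intron. Other names, chosen after their values were seen, complete a group, a chromosomal run or a count, and do so for CYP72A10, CYP81D1, THAS, the organ markers and the introns of the authors' table. The genome sequence was TAIR10.1 from RefSeq; at the deposited coordinates 244 of 247 P450 introns had GT-AG ends (98.8%). P450 proteins were not compared here. Alternatives were another normalisation, test, filter and dispersion fit, rRNA and organelle loci or overlapping genes left out, no gene offset, each library left out in turn and, chosen after seeing the data, the column letter as a block.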

Additional observations from a re-analysis of the deposited data

How the results depend on the processing

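The count of P450 genes higher in gemin2 was 35 and ranged from 26 (DESeq2) to 41 (no filter) over all alternatives, and the count of lower genes was 43 and ranged from 35 to 45, so both stayed within 1.5 times. Leaving out a library gave 31 to 34 higher and 38 to 43 lower genes. Of the 78 called genes, 10 overlap another annotated locus and may share its reads. Leaving overlapping genes out gave 33 higher and 35 lower genes, so mainly lower calls fell away. Under every setting apart from that one, 53 of the 78 calls were kept. Without some library 19 were lost, with DESeq2 17, and 0 changed direction. Without a library, called values moved over 1.5 times for CYP71B2 (-0.20 without WT B), CYP79B2 (-0.11 without gemin2 B), CYP82C3 (-0.64 without WT B) and CYP86A1 (0.16 without gemin2 A). Of 571 alternative values for 44 named genes, 544 kept direction and side of the threshold. CYP94B1, which did not pass at -0.062, turned to 0.065 without gemin2 A (edgeR adjusted p = 0.803) and ranged from -0.17 without gemin2 B up to that value. The 3 called introns became 1 with a minimum count of 20 and 1 with DESeq2. The 0 called splicing bins became 3 with no gene offset, a setting that also counts changes of the whole gene. The causes of the other changes were not tested. The columns carry letters that no label ties to the replicate numbers, and deviations from the genotype means of libraries with the same letter correlated at -0.006, -0.016 and -0.058, so the letters were not taken as pairs. A replicate block by letter, chosen after seeing the data, gave 34 higher and 43 lower genes, 0 bins and 3 introns. Depth limits the 77 untested genes and introns with under about 5 reads in a library.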
